A study of Mus musculus with 8 samples.

Results

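The angiopoietin-like genes Angptl1, Angptl2, Angptl4, Angptl6 and Angptl7 were examined in RNA sequencing data of mouse uterine stromal cells. These 5 genes were taken by symbol from tables of 23420 gene symbols. They were chosen by their CPM (reads per 1000000) in each library and the difference between the genotypes, above all that of Angptl7, so that difference is given here as a description with no test. All 5 were among the 14598 genes with enough reads to be fitted. Angptl8, listed under its older symbol Gm6484, is no part of the set and had 2 to 9 reads per library, which was too few to fit.

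The study is titled for stromal Erbb3 and the shaping of uterine glands. Polyadenylated RNA came from uterine stromal cells of female mice labelled day 3, with 4 libraries under the genotype Erbb3f/f and 4 under Erbb3d/d. In mouse genetics f usually stands for a loxP-flanked allele and d for the form left once Cre has cut it. The labels used here do not spell this out, and they give no Cre line, no age, no strain and no event from which day 3 is counted. They also do not say whether replicates came from separate animals or pools, so the spread between libraries may be partly technical.

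Reads assigned to genes numbered 8578575 to 12854367 per library. Erbb3, the targeted receptor gene, had 9.64 ± 2.24 CPM in the libraries labelled Erbb3f/f and 13.9 ± 4.56 in those labelled Erbb3d/d (n = 4, SD; edgeR quasi-likelihood test, adjusted p = 0.485). It was therefore not lower where the label says it was deleted, and whole-gene counts cannot show whether a single exon is missing. All directions here follow the labels only. Stromal markers led the libraries, with a summed level over 12 markers of 13610 to 16933 CPM in Erbb3f/f and 11553 to 15667 CPM in Erbb3d/d. Epithelial markers (12 genes) summed to 881 to 1401 CPM in Erbb3f/f and 1345 to 2157 CPM in Erbb3d/d, and smooth muscle markers (8 genes) to 826 to 1713 CPM and 1666 to 3966 CPM. In such bulk RNA, fewer cells of a type and less RNA per cell cannot be told apart.

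Angiopoietin-like proteins are secreted glycoproteins built like the angiopoietins, with a coiled-coil stretch followed by a fibrinogen-like domain, but they are not classical ligands of the Tie receptors. Angptl4 is best known as an inhibitor of lipoprotein lipase, a role in which Angptl8 also takes part. Angptl2 is a stromal and adipose factor linked to inflammation and vessel growth, Angptl6 is known as an angiopoietin-related growth factor, Angptl1 as a vessel-stabilising and anti-angiogenic factor, and Angptl7 as a matrix-associated protein of the cornea and the outflow tissue of the eye.

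The genes were first placed in the genome (GRCm38, GENCODE vM21), because 3 of the 5 lie inside another gene. Angptl7 has 5 exons and is on the minus strand of chromosome 4, from 148495183 to 148500460. It sits wholly within intron 26 of Mtor, which encodes the kinase mTOR and runs on the plus strand. Angptl2, on chromosome 2 at 33216069 to 33247717, lies within intron 8 of Ralgps1. Angptl1, on chromosome 1 at 156838562 to 156861078, lies within intron 12 of Ralgps2. Ralgps1 and Ralgps2 both encode exchange factors for Ral GTPases. Each nested gene runs against its host, and no exon base of these 3 genes falls in an exon of the host. Angptl8 is nested in the same manner, in Dock6. Over the whole annotation 541 of 21951 protein-coding genes lie inside a protein-coding gene on the other strand. Angptl4, on chromosome 17 at 33773750 to 33781830, and Angptl6, on chromosome 9 at 20873808 to 20879727, have no such host.

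**Figure D1:**
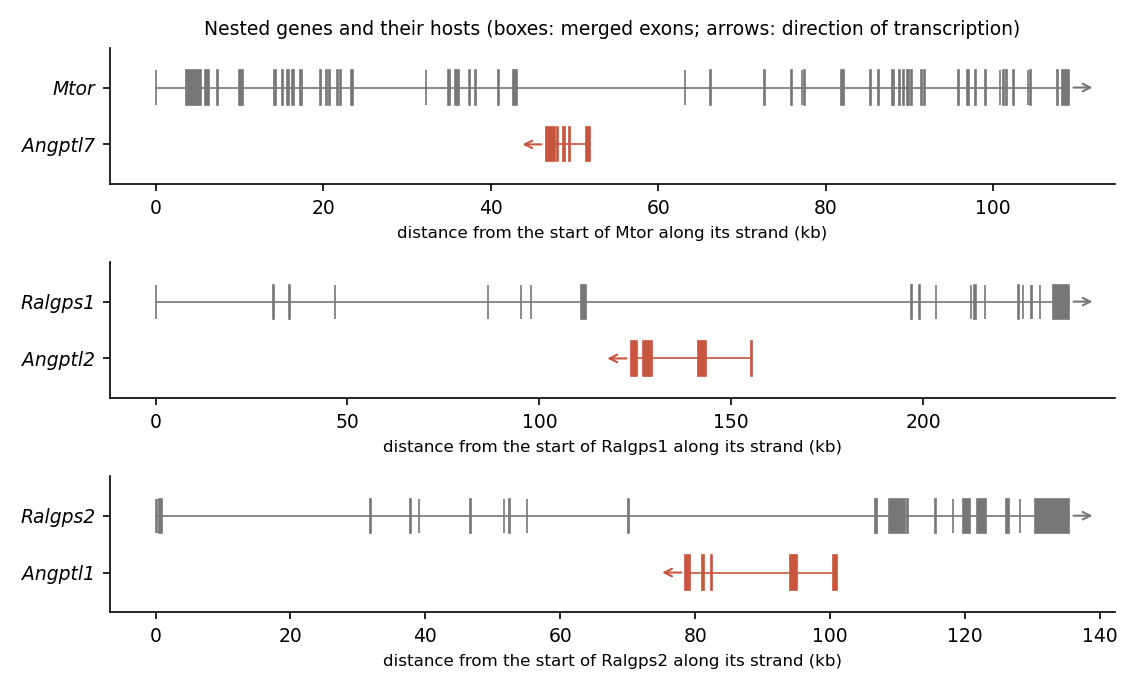
Exons (boxes) of Angptl7, Angptl2 and Angptl1 in red below the exons of the gene that holds each of them in grey, in kilobases from the host's start along the host's strand. Arrows give the direction of transcription. Each red gene lies between neighbouring grey exons and points the other way.

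Since Angptl7 is the member whose level varied most, the 250 bases before its RefSeq start are shown (GRCm38.p6, chr4:148500463-148500712, minus strand, 5′ to 3′). All of them lie within the intron of Mtor. Capitals mark a TATTTAA run.

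Angptl7: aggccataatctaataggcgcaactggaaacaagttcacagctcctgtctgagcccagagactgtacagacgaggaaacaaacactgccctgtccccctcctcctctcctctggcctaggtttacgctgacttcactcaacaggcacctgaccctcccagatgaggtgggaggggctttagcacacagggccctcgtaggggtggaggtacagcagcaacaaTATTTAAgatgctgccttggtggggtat

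The TATTTAA run begins 28 bases before the start. This motif was searched after the sequence had been read, and 4.18% of all 250-base windows hold it on either strand. Searched on both strands, the window held no TATAAA (present in 12.4% of all windows), no GC box GGGCGG (32.7%), no AP-1 site TGANTCA (6.75%), no steroid receptor half-site AGAACA (16.1%), no PPAR half-site AGGTCA (14.0%), no E-box CACGTG (6.02%) and no hypoxia core ACGTG (16.6%). The last motif is contained in the E-box. These are matches of letters in 1 window and describe no binding.

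Angptl7 was the only one of the 5 members whose libraries separated by label. Its normalised read count was 127, 94.8, 56.2 and 20.7 CPM in Erbb3f/f replicates 1 to 4, from 1301, 905, 715 and 183 reads. The values of Erbb3d/d replicates 1 to 4 were 10.9, 14.6, 5.28 and 3.07 CPM, from 111, 125, 67 and 35 reads. Every library labelled Erbb3f/f lay above every library labelled Erbb3d/d, but the nearest pair, Erbb3f/f replicate 4 and Erbb3d/d replicate 2, stood only 1.42-fold apart. The mean was 74.6 ± 46.1 CPM in Erbb3f/f against 8.46 ± 5.25 in Erbb3d/d (n = 4, SD), a ratio of means of 8.82. The log2 fold change was -3.17 (SE 0.63). Among the 14598 genes fitted, 1 had a lower log2 fold change, the noncoding transcript A330076H08Rik, which is named after its values were seen. Libraries of the labels did not overlap in either direction for 5.04% of the genes fitted, and edgeR called 0% of them at an adjusted p of 0.05 (11.6% at an unadjusted p of 0.05, and 1.79% with DESeq2). Since this contrast was used to pick the gene, nothing is read from its place in that background.

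Angptl7 also varied widely among libraries of the same label. The highest Erbb3f/f library had 6.12 times the level of the lowest, and the highest Erbb3d/d library 4.75 times that of the lowest. The coefficient of variation over Erbb3f/f libraries was 61.8% and over Erbb3d/d libraries 62.0%, where the median over genes of at least 1 CPM was 14.0% and 15.8%. Of 14424 such genes, 377 varied more than Angptl7 among the Erbb3f/f libraries, and 466 of 14473 did so among the Erbb3d/d libraries. Erbb3f/f replicate 4 stood nearer to the Erbb3d/d mean than to its own.

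Reads from the host were examined beside Angptl7, because the libraries carry no strand and unspliced Mtor RNA covers the Angptl7 exons. Mtor had 49.2 ± 2.95 CPM in Erbb3f/f against 40.3 ± 5.13 in Erbb3d/d (n = 4, SD). Its libraries overlapped narrowly, with a lowest Erbb3f/f value of 46.1 CPM and a highest Erbb3d/d value of 46.4 CPM. Mtor had a log2 fold change of -0.29 (SE 0.11; edgeR quasi-likelihood test, unadjusted p = 0.0284, adjusted p = 0.377). These counts are of Mtor exons and do not measure unspliced RNA. What unspliced Mtor RNA adds to the Angptl7 reads was not tested in the libraries of either label.

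Angptl2 was the most abundant member in reads, and its labels overlapped. It had 248, 270, 324 and 308 CPM in Erbb3f/f replicates 1 to 4 and 327, 262, 394 and 409 CPM in Erbb3d/d replicates 1 to 4. Erbb3d/d replicates 3 and 4 exceeded every Erbb3f/f library, whereas Erbb3d/d replicate 2 lay below 3 of them. The mean was 288 ± 34.7 CPM in Erbb3f/f against 348 ± 67.5 in Erbb3d/d (n = 4, SD), a log2 fold change of 0.28 (SE 0.15). Within both labels the pair of libraries with the most Angptl7 was the pair with the least Angptl2. These were replicates 1 and 2 in Erbb3f/f and again replicates 1 and 2 in Erbb3d/d. The host gene Ralgps1 had only 3.44 ± 1.74 CPM in Erbb3f/f against 2.99 ± 1.38 in Erbb3d/d (n = 4, SD).

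Angptl4, the lipase inhibitor, had no shared direction between the labels. It had 81.6, 53.5, 133 and 50.0 CPM in Erbb3f/f replicates 1 to 4 and 107, 105, 51.7 and 72.6 CPM in Erbb3d/d replicates 1 to 4. The highest and the lowest of all 8 values both came from libraries labelled Erbb3f/f. The mean was 79.5 ± 38.2 CPM in Erbb3f/f against 83.9 ± 26.5 in Erbb3d/d (n = 4, SD), with a log2 fold change of 0.07 (SE 0.34). The SE leaves room for a difference of either sign, and without Erbb3f/f replicate 3 the log2 fold change was 0.44, against -0.09 without Erbb3f/f replicate 4. Among the Erbb3f/f libraries its coefficient of variation was 48.1%, and 895 of 14424 genes varied more.

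Angptl6 was the steadiest member. It had 23.2, 19.5, 17.9 and 20.6 CPM in Erbb3f/f replicates 1 to 4 and 21.7, 19.0, 19.5 and 22.0 CPM in Erbb3d/d replicates 1 to 4. All Erbb3d/d values lay within the range of the Erbb3f/f values, and the log2 fold change was 0.02 (SE 0.13). Its exons share 265 bases with A230050P20Rik on the other strand, so reads there could not be given to either gene by strand. A230050P20Rik had 44.9 ± 5.35 CPM in Erbb3f/f against 41.7 ± 4.39 in Erbb3d/d (n = 4, SD).

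Angptl1 was present at a trace. It had 18 to 28 reads per library in Erbb3f/f and 20 to 22 in Erbb3d/d, or 2.10 ± 0.604 CPM and 2.02 ± 0.278 CPM (n = 4, SD). The log2 fold change was -0.06 (SE 0.35), and at this depth a modest difference was not detectable. Its host Ralgps2 was far more abundant, with 102 ± 15.6 CPM in Erbb3f/f against 84.1 ± 24.3 in Erbb3d/d (n = 4, SD). How many of the few Angptl1 reads came from unspliced Ralgps2 was not tested. A further 465 exon bases of Angptl1 are shared with Gm37802 on the other strand.

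**Figure D2:**
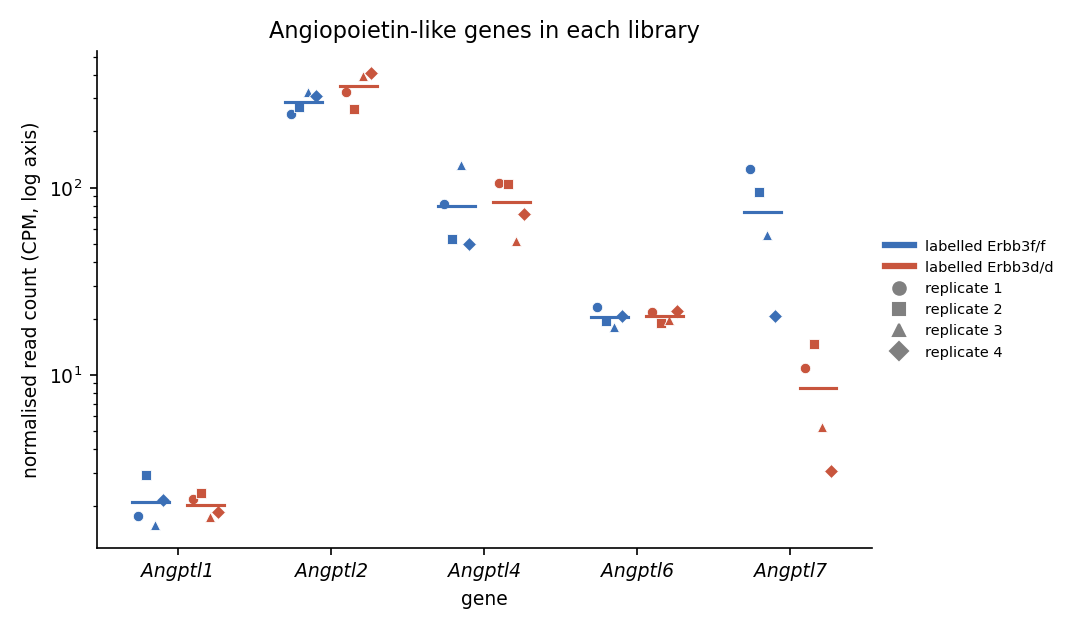
Normalised read count (CPM, log axis) of each member in each library, with libraries labelled Erbb3f/f in blue and Erbb3d/d in red, a symbol for each replicate number and a bar at the mean of 4. Angptl7 is the only member of the 5 whose colours separate, and it is spread over more than 4-fold within each colour.

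To order the genes by level, CPM was divided by the length of all merged exons in kilobases, giving reads per kilobase per 1000000 reads (RPKM). In Erbb3f/f the order was Angptl2 at 45.7 ± 5.52 RPKM, Angptl7 at 34.6 ± 21.4 RPKM, Angptl4 at 22.4 ± 10.8 RPKM, Angptl6 at 12.8 ± 1.40 RPKM and Angptl1 at 0.740 ± 0.213 RPKM (n = 4, SD). The range of Angptl7 overlapped those of Angptl2, Angptl4 and Angptl6, while Angptl2 lay above Angptl4 in every Erbb3f/f library with no overlap. By merged exons, Angptl7 exceeded Angptl2 in Erbb3f/f replicates 1 and 2, and Angptl2 exceeded Angptl7 in replicates 3 and 4. Angptl7 likewise exceeded Angptl4 in replicates 1 and 2 only. In replicate 4 it was also below Angptl6, at 9.59 against 13.0 RPKM. Angptl4 was above Angptl6 in 4 of 4 libraries although their ranges overlapped, and Angptl1 lay apart below them all. Among 13695 fitted genes with a known length, the mean level of Angptl2 stood at percentile 93.7, that of Angptl7 at 90.4, that of Angptl4 at 83.1, that of Angptl6 at 68.5 and that of Angptl1 at 7.84.

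In Erbb3d/d the order of RPKM was Angptl2, Angptl4, Angptl6, Angptl7 and Angptl1, and no neighbours in it overlapped. Angptl7 had 3.92 ± 2.43 RPKM (SD, n = 4) there, at percentile 33.4 of the same genes. Angptl7 made up 29.7% of the summed RPKM of the 5 members in Erbb3f/f and 4.06% in Erbb3d/d. The level of Angptl2 depends on the gene model, since its merged exons are 6286 bases long and its longest transcript 3559. With the longest transcript its Erbb3f/f mean was 80.8 RPKM, and the order of the 5 means was the same. At that length Angptl2 lay above Angptl7 in every Erbb3f/f library, with no overlap. Their crossing and overlap, and the shares of summed RPKM above, therefore hold for merged exons only.

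**Figure D3:**
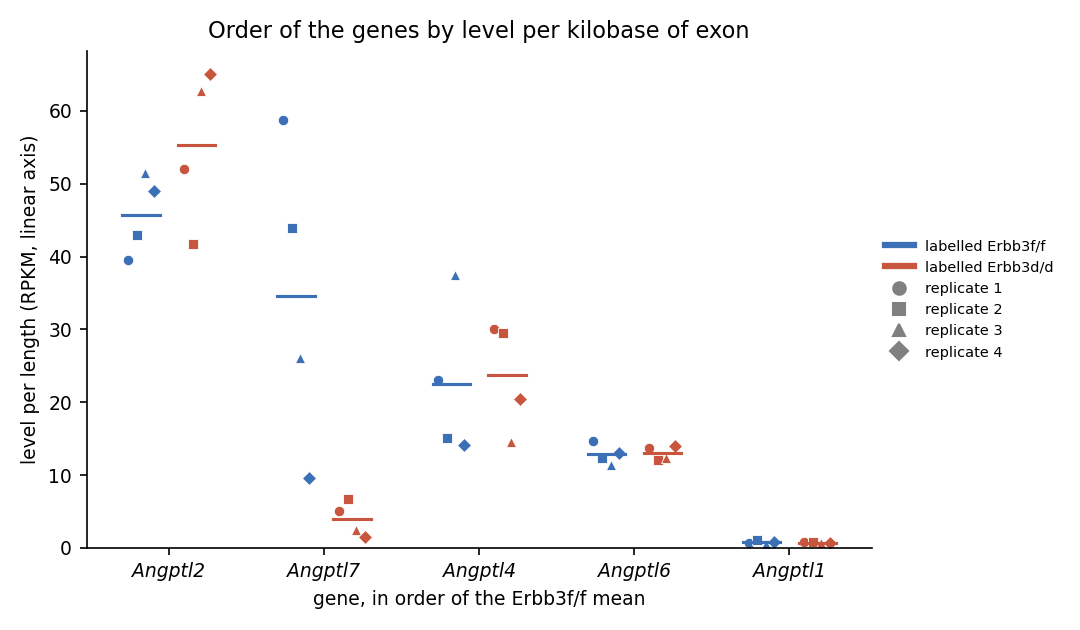
Level per kilobase of merged exons (RPKM, linear axis) of each member in each library, in order of the Erbb3f/f mean. Colours and symbols for the labels and replicates are the same, with a bar at each mean of 4. Angptl7 ranges from 9.59 to 58.8 RPKM in Erbb3f/f, across the levels of Angptl2, Angptl4 and Angptl6, and stays at or below 6.76 RPKM in Erbb3d/d.

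The profile of each member over the 8 libraries was then compared with 14513 other genes of at least 1 CPM by Pearson's r of log2 CPM. With so few libraries many genes reach a high r by the shared labels and libraries alone, so these values are descriptions. The genes nearest to Angptl7 were Crybg3 (r = 0.983), a crystallin-fold protein gene, Cluap1 (r = 0.981), whose protein serves transport in cilia, and Fam107a (r = 0.979), an actin-associated gene. Their amplitude differed. Crybg3 had 109 ± 12.5 CPM in Erbb3f/f against 82.2 ± 7.16 in Erbb3d/d (n = 4, SD), and Cluap1 had 14.7 ± 1.45 and 11.6 ± 0.995 CPM. Only Fam107a among these 3 covered a range like that of Angptl7. It had 15.6, 19.3, 7.93 and 2.60 CPM in Erbb3f/f replicates 1 to 4 and 2.36, 3.03, 0.394 and 0.263 CPM in Erbb3d/d replicates 1 to 4. As for Angptl7, Erbb3f/f replicate 4 was the lowest of its label and Erbb3d/d replicate 2 the highest. Its labels overlapped, unlike those of Angptl7.

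**Figure D4:**
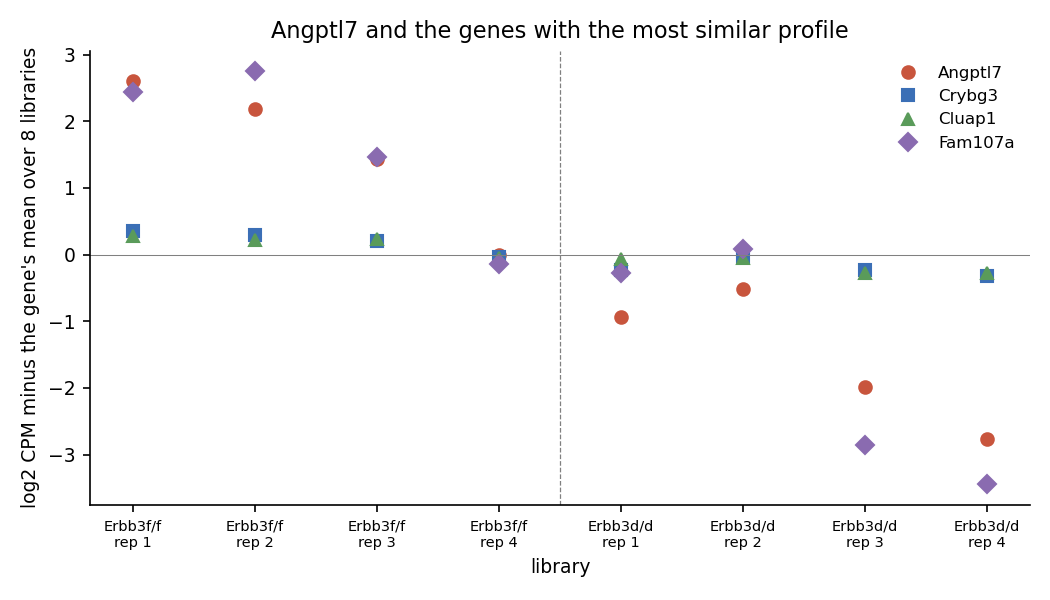
Log2 CPM of Angptl7, Crybg3, Cluap1 and Fam107a in each library, relative to each gene's mean over the 8 libraries, with a dashed line between the labels. Angptl7 and Fam107a cover a wide range, highest in Erbb3f/f replicates 1 and 2 and lowest in Erbb3d/d replicates 3 and 4, while Crybg3 and Cluap1 vary at a much smaller amplitude.

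With the mean of each label taken off, the genes nearest to Angptl7 were Nucb2 (r = 0.994), Acsf2 (r = 0.976) and Gpr21 (r = 0.974), so none of the first 3 was among them. For Angptl2 the nearest over 8 libraries were Dazap2, Shc1 and Serpinb9 (r = 0.983 to 0.986), and with label means taken off Csf1, Mbp and Asah1. For Angptl4 they were Cngb1, Slx1b and Aptx (r = 0.945 to 0.966), then Iglon5, Slx1b and Fign. Angptl6 was nearest to Fbrs in both forms (r = 0.976 and 0.992), with 1700061G19Rik and Lrrc71 in the first and Rasl10a and Rnpepl1 in the second. Angptl1 was nearest to Dcaf13, Fyttd1 and 4930503L19Rik (r = 0.921 to 0.928), then to Ddit4, Dcaf13 and Ahnak. An r above 0.9 over 8 libraries was reached by 138 genes with Angptl7 and 179 with Angptl2, but by only 17 with Angptl4, 12 with Angptl6 and 12 with Angptl1.

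Genes around the family were read out in lists by role, as measured in the fit over all genes. Over the 7 lists of pathway genes and the 3 hosts, 65 of 80 genes could be fitted. edgeR's quasi-likelihood test called 0 of them at an adjusted p of 0.05, with 34 higher and 31 lower in Erbb3d/d. At an unadjusted p of 0.05 there were 11, against 11.6% of all genes fitted. DESeq2 called 4, against 1.79% of all genes fitted, and edgeR without Erbb3d/d replicate 2 also called 4 (Egln3, Pcsk6, Pdk4 and Tsc22d3), and none when each of the other libraries was left out in turn. The median log2 fold change was 0.01 over the 65 genes and -0.01 over all genes. Libraries of the labels did not overlap for 4 of the 65 (Lmf1, Pdk4, Tsc22d3 and Vegfa), near the share of 5.04% among all genes fitted.

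The lipases and their partners were the first list, with 10 of 13 genes fitted. None was called by edgeR or DESeq2, 1 had an unadjusted p under 0.05, 5 were higher and 5 lower, and the median log2 fold change was 0.05. Lpl, the lipoprotein lipase that Angptl4 inhibits, had 132 ± 39.9 CPM in Erbb3f/f against 164 ± 21.4 in Erbb3d/d (n = 4, SD), a log2 fold change of 0.31 (SE 0.20). Gpihbp1, which carries the lipase onto capillary walls, had 1.96 ± 1.43 and 1.27 ± 0.272 CPM. Lmf1, a chaperone of lipase folding, had 13.0 ± 0.418 and 11.0 ± 0.271 CPM, and its labels did not overlap. The fatty acid transporter Cd36 had 11.4 ± 4.01 and 16.4 ± 6.19 CPM, and the lipoprotein receptor Vldlr 170 ± 38.5 and 148 ± 31.7 CPM. The smallest adjusted p of the list was 0.337. Fat cell markers were near 0. The 5 markers, Adipoq and Plin1 among them, summed to at most 1.02 CPM in any library.

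Receptors and binding partners numbered 13, with 12 fitted, 10 of them higher and 2 lower in Erbb3d/d. None was called by either tool, 2 had an unadjusted p under 0.05, and the median log2 fold change was 0.21. Itgav and Itgb3, the chains of an integrin on which several matrix and fibrinogen-like proteins act, had 150 ± 14.2 and 112 ± 11.2 CPM in Erbb3f/f and 171 ± 13.7 and 101 ± 20.1 CPM in Erbb3d/d (n = 4, SD). Tek, the angiopoietin receptor of endothelium, had 12.1 ± 6.78 and 15.5 ± 3.81 CPM. Endothelial markers, of which Tek is itself one, summed to 233 to 480 CPM in Erbb3f/f and 238 to 502 CPM in Erbb3d/d, and within each label they were higher in replicates 1 and 2 than in replicates 3 and 4. Sdc4 and Sdc2, cell surface heparan sulphate carriers, were the genes under 0.05 before adjustment. Sdc4 had a log2 fold change of 0.52 (SE 0.16) and Sdc2 of 0.30 (SE 0.13). Pirb, the mouse receptor related to human LILRB2, was not analysed here.

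The proprotein convertases, which cleave Angptl4 and related proteins between their domains, held 4 genes. Furin had 155 ± 14.4 CPM in Erbb3f/f against 155 ± 14.9 in Erbb3d/d (n = 4, SD). Pcsk5 and Pcsk6 pointed opposite ways. Pcsk5 had 160 ± 39.0 and 79.3 ± 46.3 CPM, a log2 fold change of -1.02 (SE 0.39), and Pcsk6 had 11.7 ± 2.28 and 25.8 ± 9.69 CPM, a log2 fold change of 1.14 (SE 0.28). Neither was called in edgeR's test (adjusted p = 0.377 and 0.237), and both had an unadjusted p under 0.05. DESeq2 called Pcsk6 (adjusted p = 0.0102), as did edgeR without Erbb3d/d replicate 2.

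Known regulators of Angptl4 and other genes induced by the same signals formed 3 lists. Of 12 PPAR receptors and targets, 7 were higher and 5 lower, with a median log2 fold change of 0.06. edgeR called none, DESeq2 called 1, and 2 had an unadjusted p under 0.05. The receptor genes had 14.1 ± 2.55 and 9.17 ± 3.89 CPM (Ppara), 50.3 ± 3.57 and 44.0 ± 5.89 CPM (Ppard) and 2.28 ± 0.830 and 3.27 ± 1.59 CPM (Pparg) in Erbb3f/f and Erbb3d/d. Pdk4, a kinase that restrains glucose oxidation and a classical PPAR target, had 5.33 ± 1.64 CPM in Erbb3f/f against 14.7 ± 5.88 in Erbb3d/d (n = 4, SD), with no overlap. Its log2 fold change was 1.47 (SE 0.33), and the adjusted p was 0.203 from edgeR and 0.00423 from DESeq2. The lipid droplet gene Plin2 had 109 ± 34.2 and 144 ± 39.5 CPM.

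Of 10 hypoxia-induced genes, 5 were higher and 5 lower, with a median log2 fold change of 0.08. edgeR called none, 2 had an unadjusted p under 0.05, and DESeq2 called Egln3, an oxygen sensor (log2 fold change 1.42, SE 0.37). Hif1a, the oxygen-regulated factor, had 254 ± 23.2 CPM in Erbb3f/f against 228 ± 25.2 in Erbb3d/d (n = 4, SD). Its target Vegfa had 397 ± 28.2 and 461 ± 23.3 CPM, with no overlap (edgeR, adjusted p = 0.394). Of 8 glucocorticoid-related genes, 3 were higher and 5 lower, with a median of -0.08. edgeR called none and 1 had an unadjusted p under 0.05. That gene was Tsc22d3, which encodes the glucocorticoid-induced leucine zipper protein, with 179 ± 14.9 CPM in Erbb3f/f against 121 ± 22.9 in Erbb3d/d (n = 4, SD). DESeq2 called it (adjusted p = 0.0182) and edgeR did not (adjusted p = 0.215). The receptor gene Nr3c1 had 162 ± 14.6 and 179 ± 15.3 CPM, and the receptor's target Fkbp5 30.8 ± 5.67 and 26.7 ± 2.92 CPM.

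Other genes with a fibrinogen-like domain were the nearest relatives, with 6 of 17 fitted. Of these 5 were lower and 1 higher in Erbb3d/d, with a median log2 fold change of -0.21. None was called by edgeR or DESeq2, 0 had an unadjusted p under 0.05, and the smallest adjusted p was 0.577. Angpt1 and Angpt2, the vessel-acting angiopoietins, had 13.9 ± 1.60 and 10.2 ± 2.58 CPM in Erbb3f/f and 11.5 ± 3.01 and 8.14 ± 2.17 CPM in Erbb3d/d (n = 4, SD). The matrix genes Mfap4 and Tnc were far more abundant in reads, at 624 ± 157 and 390 ± 216 CPM in Erbb3f/f and 563 ± 126 and 269 ± 56.8 CPM in Erbb3d/d. The log2 fold changes of these 4 genes lay between -0.53 and -0.15, beside -3.17 for Angptl7.

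**Figure D5:**
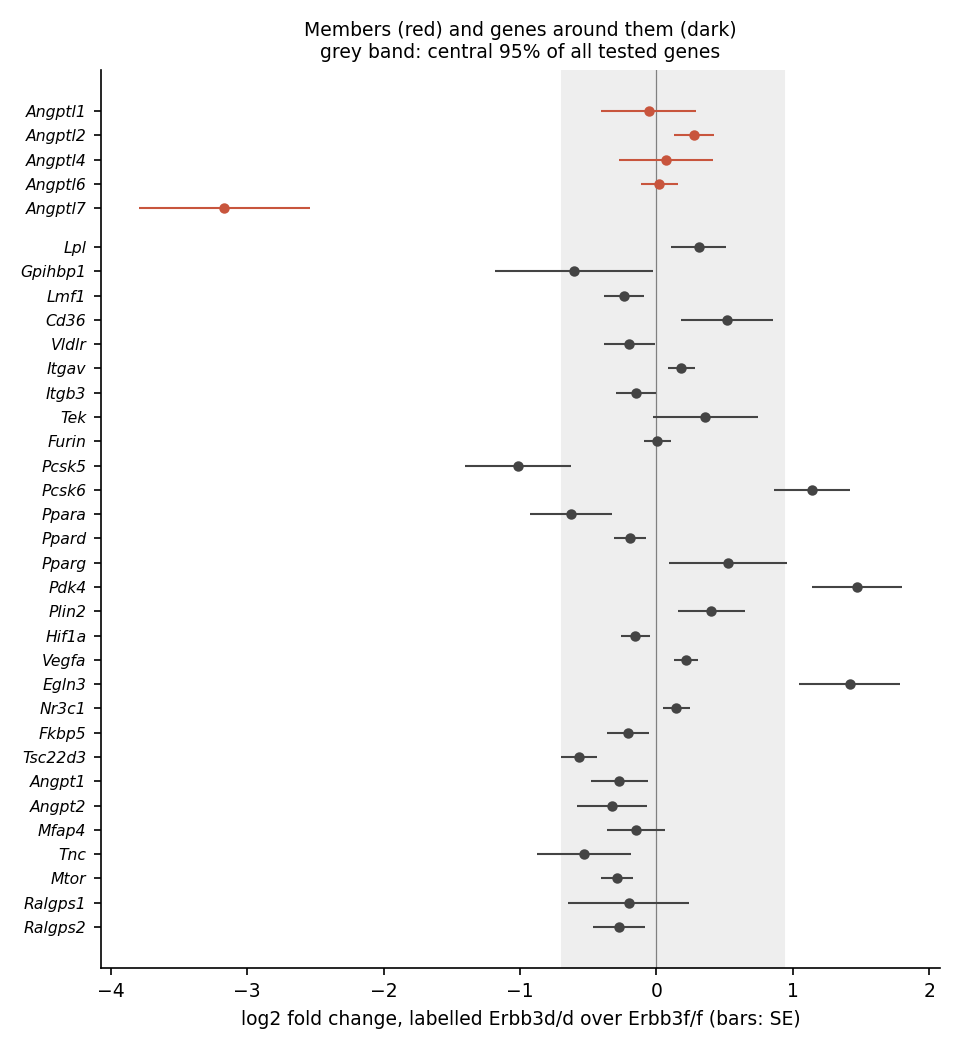
Log2 fold change (libraries labelled Erbb3d/d over Erbb3f/f) with its SE for the 5 members in red and for genes around them in dark grey. The band holds the central 95% of all genes fitted, from -0.69 to 0.94. Angptl7 lies far to the left of the band, the other 4 members lie inside it, and Pcsk5, Pcsk6, Pdk4 and Egln3 lie outside it.

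The other cell types in the samples were set beside Angptl7. Stromal markers were higher in Erbb3d/d for 4 of 12 genes and lower for the rest. Epithelial markers were higher for 10 of 12 genes, smooth muscle markers for 8 of 8, endothelial markers for 8 of 9, lymphatic markers for 4 of 4, pericyte markers for 4 of 6 and immune markers for 3 of 7. Pericyte markers summed to 128 to 352 CPM in Erbb3f/f and 164 to 287 CPM in Erbb3d/d. In Erbb3f/f they were higher in replicates 1 and 2 than in replicates 3 and 4, and the same held in Erbb3d/d, as it did for Angptl7 and for the endothelial sum within each label. Between the labels their ranges overlapped. Mesothelial markers (4 of 5 fitted) were lower in Erbb3d/d for 4 of 4 genes and summed to 288 to 417 CPM in Erbb3f/f and 271 to 370 CPM in Erbb3d/d. Of 5 nerve and Schwann cell markers 2 were fitted, Sox10 had 0 reads in all libraries, and the sum was 4.41 to 10.0 CPM in Erbb3f/f and 5.26 to 11.5 CPM in Erbb3d/d. Within each label, this sum too was higher in replicates 1 and 2 than in replicates 3 and 4. Immune markers summed to 303 to 570 CPM and 345 to 464 CPM, and lymphatic markers to 60.9 to 107 CPM and 66.1 to 216 CPM. The immune and mesothelial sums went the other way within each label, lower in replicates 1 and 2 than in replicates 3 and 4. The stromal, epithelial, smooth muscle and lymphatic sums kept neither order in both labels. The part of any of these cells in the level of Angptl7 was not tested.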

How the data were processed

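Per the labels' protocols, TRIzol RNA was selected for poly(A) tails, and libraries without strand information were read from both ends at 150 bp. Per the submitters' processing notes, HISAT2, SAMtools, HTSeq and StringTie were used with mm10 (GRCm38). Versions, annotation and counting options are not given in the sources used here. The authors deposited raw counts of reads for each gene symbol, 1 table per library. A last set of 5 lines that name no gene was left out of library sizes and tests. Of each table, 48.3% to 50.8% was in the line for reads outside the counted parts of genes. A further 0.147% to 0.166% was in that for ambiguous reads, and 27.0% to 29.1% in genes. Intron reads fall in the first of these lines unless an exon of a nested gene lies there.

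Libraries were grouped by genotype and replicate number from their titles. None of the 12 pairs of libraries within a label agreed within sampling noise (chi-square per degree of freedom 13.5 to 35.2). In R 4.3.3 with edgeR 4.0.16, genes were kept by filterByExpr, libraries scaled by TMM, and the genotypes compared by the quasi-likelihood test (robust) with Benjamini-Hochberg adjustment at 0.05. DESeq2 1.42.0, other scalings, no filter, the replicate number as a block and leaving out each library were alternatives. On simulated counts for 14464 genes, the test recovered 73.0% of 100 changes of log2 size 1 and 93.9% of 99 of size 2, with 7 false calls. The simulated counts were drawn for each gene on its own, with no deviation of a library shared between genes. The recovered shares therefore do not give the power of the real comparison. The SE is the log2 fold change over the square root of edgeR's F.

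The members and lists were chosen with earlier results of these data known. The text names every member, genes set by a rule for each list, hosts of nested members, list genes that DESeq2 called or that had an unadjusted p under 0.05 where named as such, and the 3 genes most like each member over 8 libraries, by Pearson's r of log2 CPM (prior count 2). Gene models were GENCODE vM21, in which 21737 of 23420 symbols (92.8%) matched 1 gene. Promoter sequences were RefSeq's on GRCm38.p6, which held 4 of the 5 members. Tables were handled with Python 3.11.15 and pandas 2.3.3.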

Additional observations from a re-analysis of the deposited data

Results flagged for a closer look

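In 96 sets of 4 libraries the end values were checked for a wide gap to the others. Chance gives such a gap in about 1 in 20 sets, or 4.8 here, and 3 were found. None of the 5 members showed such a gap. In the libraries labelled Erbb3d/d, Lpl was lowest at 132 CPM, with the nearest at 169 CPM, and Lmf1 was lowest at 10.6 CPM, with the nearest at 11.1 CPM. In the libraries labelled Erbb3f/f, Angpt2 was highest at 14.0 CPM, with the nearest at 9.03 CPM.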

How the results depend on the processing

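The number of genes called over all genes was 0 with TMM, RLE or upper quartile scaling and with no filter on low counts. It was 262 with DESeq2, of which 203 were higher and 59 lower, and 52 with the replicate number as a block, of which 39 were higher and 13 lower. Leaving out a library gave 0 to 259 calls, the 259 without Erbb3d/d replicate 2 and 0 without any other. Among the lists, proprotein convertases, PPAR receptors and targets, hypoxia-induced genes and glucocorticoid-related genes each had 1 call with DESeq2 and 0 to 1 when a library was left out, and hypoxia-induced genes had 1 with the replicate block (Egln3). The other lists had 0 in every alternative. Same-numbered libraries deviated together with low correlations of 0.22, 0.16, 0.096 and 0.15. Of the Erbb3f/f libraries, 3 of 4 correlated best with their own number, and replicate 4 correlated best with Erbb3d/d replicate 3.

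The log2 fold change of Angptl7 was -3.12 with the replicate block and -3.14 with DESeq2, and ran from -3.55 to -2.77 when a library was left out. That of Angptl2 ran from 0.19 to 0.39. Those of Angptl1 (-0.18 to 0.15), Angptl4 (-0.09 to 0.44) and Angptl6 (-0.04 to 0.10) changed sign. With the longest transcript in place of merged exons, the level of Angptl2 in Erbb3f/f was 80.8 in place of 45.7 RPKM. Depth limits Angptl1, with 18 to 28 reads per library.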
